A study of Mus musculus with 4 samples.

Results

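The enzymes that modify and process transfer RNAs (tRNAs) were examined in ribosome-protected fragments (RPFs) of mouse leptotene/zygotene spermatocytes with and without *Eef1g*, which encodes a subunit of the translation elongation factor that recharges eEF1A for the delivery of aminoacyl-tRNAs. Members were chosen by a rule on gene symbols. They included TRMT and THUMPD genes (mostly for methyltransferases), Elongator subunit genes (among them *Elp2* to *Elp6*) and NSUN, PUS and TSEN genes. Also chosen were *Ctu1*, *Ctu2*, *Urm1*, *Mocs3*, *Alkbh8*, *Trit1*, *Qtrt1*, *Adat1*, *Adat2*, *Adat3* and *Trnt1*. The rule found 50 of the 11598 genes in the table. Of these, 49 passed the filter on low values, which asked for 1 FPKM or more on average, where FPKM is reads per kilobase of gene and 1000000 counted reads. The exception was *Trmt2b*, with 14 and 4 control reads but none in both *Eef1g*-cKO libraries.

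Almost every tRNA is trimmed, in some cases spliced, given a CCA tail and modified at many bases before it is used. Modifications of the anticodon loop tune how the ribosome reads codons, and those elsewhere hold the folded tRNA in shape. At the wobble uridine, the first anticodon base of several tRNAs, the Elongator complex builds a side chain that ALKBH8 completes as a methyl ester, and CTU1 and CTU2 replace an oxygen by sulfur carried by URM1. The splicing endonuclease TSEN cuts introns out of the few tRNA precursors that have them.

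Both genotypes were C57BL/6J mice at 12 dpp (days postpartum), with 2 libraries each. In *Eef1g*-cKO mice a run of *Eef1g* exons was removed by *Stra8*-GFPCre, a recombinase active in germ cells from the type A spermatogonium on, so somatic cells kept the gene. Controls are named wild type in the labels and were littermates by the study's account. Leptotene and zygotene spermatocytes were sorted by Hoechst staining, lysed with cycloheximide, treated with RNase I and converted to libraries with a kit for low input. The sources do not say whether the libraries came from different animals, so p-values measure the spread between these libraries only. Bulk RPF values cannot tell fewer cells of a type from less translated RNA per cell.

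The substrates of the enzymes that the results turn on are shown by 3 nuclear tRNA genes of the mouse (RefSeq annotation of GRCm38.p6, transcribed strand, 5′ to 3′). The wobble uridine enzymes act on these tRNAs, and capitals mark the anticodon, bases 34 to 36, whose first T is the wobble uridine in the tRNA.
tRNA-Lys, chr1:133033962-133034034 (+): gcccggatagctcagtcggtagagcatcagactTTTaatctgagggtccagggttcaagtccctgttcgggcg
tRNA-Glu, chr13:23463535-23463606 (+): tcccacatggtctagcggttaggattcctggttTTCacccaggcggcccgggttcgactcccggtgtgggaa
tRNA-Gln, chr13:23519050-23519121 (+): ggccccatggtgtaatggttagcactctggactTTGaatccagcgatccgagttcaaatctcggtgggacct
The lysine sequence is held by 6 of the 10 annotated genes with that anticodon, the glutamate sequence by 4 of 8 and the glutamine sequence by 2 of 6. Of 403 nuclear tRNA genes read, 22 carried an annotated intron.

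Depth differed with genotype. Control libraries held 2479504 and 1384282 reads counted on genes and *Eef1g*-cKO libraries 223906 and 407979, and the median member had 77.5 and 47.0 reads in control against 4.5 and 8.0 in *Eef1g*-cKO. No member had 0 reads in a control library, while 7 and 5 members did in the *Eef1g*-cKO libraries. The targeted gene was at 27.6 and 26.8 FPKM in control (107 and 58 reads) and at 0 and 6.26 FPKM in *Eef1g*-cKO (0 and 4 reads), so both libraries labelled *Eef1g*-cKO lay below both controls (limma log2 fold change -3.39, standard error 0.91, adjusted p = 0.0731; edgeR adjusted p = 0.00782). Marker genes also moved with genotype. All 16 leptotene and zygotene markers were in the table, and their summed level was 2431 and 2027 FPKM in control against 5233 and 4940 in *Eef1g*-cKO. The 15 spermatogonia markers added up to 1558 and 1826 FPKM in control but only 290 and 271 in *Eef1g*-cKO, where *Nanos2* and *Upp1* were at 0 in both libraries. Sertoli markers (9 of 10 in the table) summed to 723 and 181 FPKM in control against 176 and 122 in *Eef1g*-cKO, Leydig and peritubular markers (8 of 12) to 77.4 and 78.6 against 35.9 and 26.7, and no macrophage or blood marker was in the table. The 6 of 11 pachytene and spermatid markers present summed to 423 and 367 FPKM against 1483 and 1397. Most of that was *Hist1h1t* (388 and 301 against 1458 and 1354), and the list did not move together. Its median log2 fold change was -1.20, and in *Eef1g*-cKO 2 genes lay above both controls and 1 below both. The part of depth and of these marker shifts in the values that follow was not tested.

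Taken as a group, more tRNA enzymes had lower than higher RPF abundance in *Eef1g*-cKO, and the few that passed the tests were spread over the wobble uridine, methyltransferase, pseudouridine and splicing enzymes. Of the 49 members tested, 35 had a log2 fold change below 0 and 14 above it, with a median of -0.90 beside -0.23 over the 10475 genes tested. Of those 10475 genes, 6191 were below 0 and 4284 above. With each library centred on its median, the member median was -0.68 and that of all genes -0.02. The member median was -0.48 with a pseudocount of 5 (all genes -0.13) and -0.54 without *Eef1g*-cKO replicate 1 (all genes -0.21). It was -0.43 (all genes 0.05) with the GC trend removed, an alternative added after seeing the data. When the 2 tested members at 0 reads in both *Eef1g*-cKO libraries were set to the bound that 3 reads over the group allow, the member median was -0.84. Both *Eef1g*-cKO libraries lay below both controls for 26 of the 49 members, against 37.7% of all genes tested, and above them for 8, against 24.6%.

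By limma's unadjusted p at the 0.05 threshold, with the log2 fold change beyond 1 in size, 9 members decreased (18.4% of those tested, against 16.3% of all genes) and 1 increased (2.04%, against 7.32%). By adjusted p, 3 decreased (*Trmt11* and *Ctu2* among them; 4.97% of all genes did) and 0 increased (2.87% of all genes; 1 by the unadjusted limma p and 0 by edgeR's adjusted p). In edgeR's quasi-likelihood test on the recovered reads, which kept 40 members, 7 decreased by adjusted p (17.5%, against 11.2% of all genes) and 0 increased (8.75% of all genes). All 7 were among the 9 of limma. The 9 became 5 without control replicate 2, 15 when *Eef1g*-cKO replicate 1 was left out and 17 when replicate 2 was, and the 3 became 0 without either control, 9 when *Eef1g*-cKO replicate 1 was omitted and 11 when replicate 2 was.

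**Figure D1:**
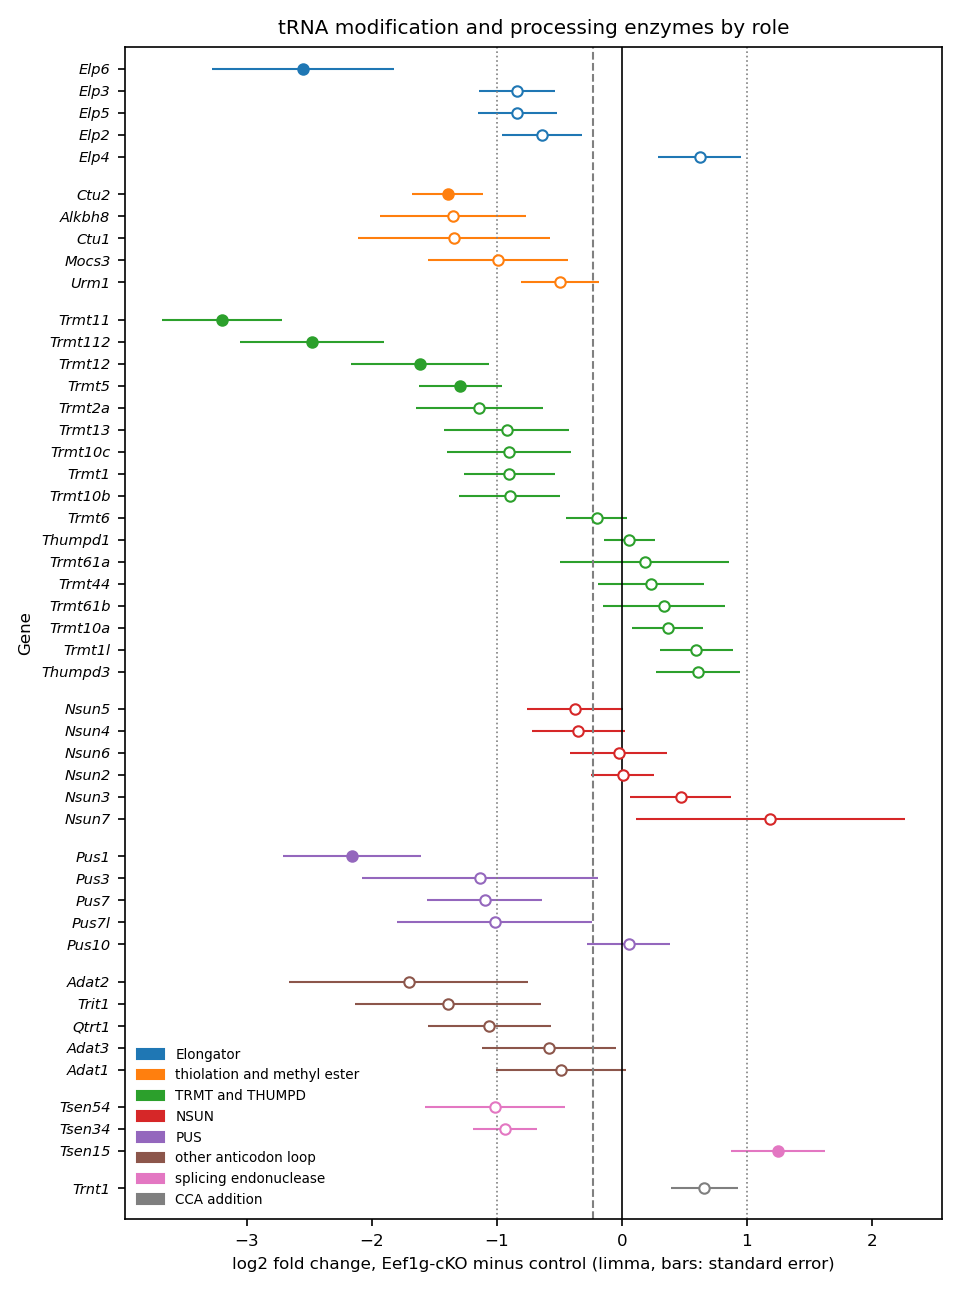
Log2 fold change (*Eef1g*-cKO minus control, horizontal axis) from limma on log2(FPKM + 1) for 47 of the 49 members tested, grouped by role and coloured by it, with bars for the standard error. Filled points passed the unadjusted p and lie beyond 1 in size (dotted lines), the dashed line is the median of all genes tested at -0.23, and most points, 33 of 47, lie left of 0.

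The wobble uridine enzymes had 11 members. Of their log2 fold changes, 10 were below 0 (6191 of 10475 over all genes tested), with a median of -0.99. *Elp6* and *Ctu2* were among those that decreased by the unadjusted p, and *Ctu2* also by the adjusted p. Together the 11 genes accounted for 1210 and 1561 of every 1000000 counted reads in control against 853 and 699 in *Eef1g*-cKO, so the genotypes did not overlap.

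The core subunit ELP2 and the catalytic subunit ELP3 had lower levels in *Eef1g*-cKO that stayed short of a call. *Elp3* was at 63.2 and 79.1 FPKM in control against 49.9 and 30.6 in *Eef1g*-cKO, log2 fold change -0.84 (standard error 0.30, limma adjusted p = 0.132). Both *Eef1g*-cKO libraries were below both controls, but the size stayed under the fold threshold, in edgeR too (-0.79, adjusted p = 0.0375). *Elp2* was at 55.4 and 75.1 FPKM against 32.0 and 52.7, without overlap, and did not pass (log2 fold change -0.64, standard error 0.32, limma adjusted p = 0.235).

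The accessory ring of Elongator is formed by ELP4, ELP5 and ELP6, and its 3 genes had unlike values. *Elp5* was at 67.7 and 92.1 FPKM in control against 56.0 and 34.1 in *Eef1g*-cKO, with log2 fold change -0.84 (standard error 0.32, limma adjusted p = 0.143). *Elp6* was at 13.9 and 6.30 FPKM in control against 2.16 and 0 in *Eef1g*-cKO, from 71, 18, 1 and 0 reads. With a single read in *Eef1g*-cKO, its pooled ratio of *Eef1g*-cKO to control was 0.0687, with an exact 95% interval from 0.00172 to 0.393 that covers counting error only. limma called *Elp6* decreased by the unadjusted p (log2 fold change -2.55, standard error 0.73, adjusted p = 0.0808) and edgeR by the adjusted p of 0.0272. The call was lost with a pseudocount of 0.1, in DESeq2, when the libraries were thinned to equal depth (-1.45) and without either control library.

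*Elp4* was the wobble uridine member with a fold change above 0. It was at 20.1 and 30.7 FPKM in control against 46.9 and 32.0 in *Eef1g*-cKO, so that every *Eef1g*-cKO value was higher, but control 2 and *Eef1g*-cKO 2 were close. The log2 fold change of 0.62 did not pass (standard error 0.33, limma adjusted p = 0.254; edgeR 0.70, adjusted p = 0.0807), and was above 0 under all 15 alternatives. The difference between *Elp4* and the other subunits was not tested. Annotated exons of *Elp4* overlap those of *Pax6* on the opposite strand over 16.2% of their bases, and whether the authors counted by strand is not given in the sources used here.

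In the thiolation branch, *Ctu2*, the partner of the catalytic subunit CTU1, decreased (chr8:122476068-122483092). It was at 54.2 and 82.2 FPKM in control against 23.3 and 26.4 in *Eef1g*-cKO, from 412, 349, 16 and 33 reads. Even the lower control was more than the higher *Eef1g*-cKO library, and the mean fell from 68.2 ± 19.8 to 24.8 ± 2.17 FPKM (SD, n = 2 each). The log2 fold change was -1.39 (standard error 0.28, limma adjusted p = 0.0457; edgeR -1.35, adjusted p = 0.00224). It was -0.76, under the fold threshold, when each library's trend with coding GC content was removed, an alternative added after the data were seen. Exons of *Ctu2* overlap those of *Piezo1* and *Rnf166* over 31.4% of their bases, and those genes were at 0.597 to 4.84 and 3.39 to 10.0 FPKM over the 4 libraries.

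The other 4 thiolation and methyl ester genes had no call. *Ctu1* was at 1.64 and 5.88 FPKM in control against 1.82 and 0 in *Eef1g*-cKO, with 1 and 0 reads there, and the genotypes overlapped. *Urm1*, the sulfur carrier, was at 17.3 and 15.5 FPKM against 12.5 and 10.3 (log2 fold change -0.49, limma adjusted p = 0.324). *Mocs3*, whose product activates URM1, was at 7.91 and 14.6 FPKM against 7.97 and 2.91, with overlap. *Alkbh8* was at 2.49 and 2.87 FPKM against 0 and 1.08, where 0 and 1 reads were behind the *Eef1g*-cKO values.

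**Figure D2:**
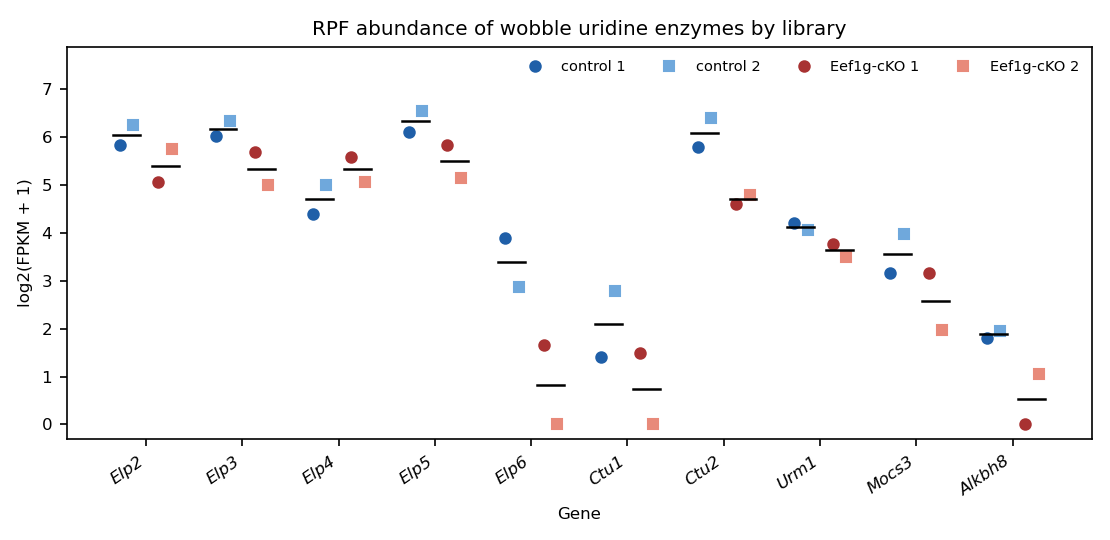
RPF abundance, as log2(FPKM + 1), of 5 Elongator genes and the 5 thiolation and methyl ester genes in each library, with circles for replicate 1, squares for replicate 2 and black lines for the mean of each genotype. All genes shown but *Elp4* have the lower mean in *Eef1g*-cKO, and points at 0 are libraries with 0 reads.

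The TRMT and THUMPD genes mostly encode base and ribose methyltransferases or their partners, while *Thumpd1* encodes a partner of an acetyltransferase. Of the 17 members tested, 10 had log2 fold changes below 0 and 7 above. Called by the unadjusted p were 4 decreases, *Trmt11*, *Trmt112*, *Trmt12* and *Trmt5* (23.5% of the 17, against 16.3% of all genes), and no increase, against 7.32% of all genes.

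*Trmt11*, the catalytic subunit of a guanosine methyltransferase of the tRNA body (chr10:30534225-30602149), had 8.72 and 7.66 FPKM in control, from 51 and 25 reads, and 0 reads in both *Eef1g*-cKO libraries. The control replicates were close and no fragment was seen in the other genotype. A count of 0 allows up to 3 reads over the *Eef1g*-cKO group, so *Trmt11* was at least 4.14-fold lower (19.7 reads per 1000000 over the control group). limma's adjusted p was 0.0307 and edgeR's 0.00718, and the call by unadjusted p, or adjusted p in the count models, held under all 14 alternatives that tested the gene.

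*Trmt112* encodes the small partner that activates several methyltransferases, among them TRMT11 and ALKBH8 (chr19:6909698-6911028). It was at 42.6 and 151 FPKM in control against 12.98 and 14.3 in *Eef1g*-cKO, from 109, 216, 3 and 6 reads. The controls differed from each other more than the lower control did from *Eef1g*-cKO in FPKM. Its log2 fold change of -2.48 passed by the unadjusted p (standard error 0.58, limma adjusted p = 0.0561) and in edgeR (-2.68, adjusted p = 0.00347), but not when the libraries were thinned to equal depth (-2.38). Exons of *Trmt112* overlap those of *Prdx5* and *Esrra* over 44.6% of their bases. *Prdx5* was itself at 247 and 406 FPKM in control against 162 and 89.1 in *Eef1g*-cKO, while *Esrra* was at 1.26 to 3.98 FPKM.

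Of the catalytic partners of TRMT112 measured here, *Thumpd3* had the opposite sign to *Trmt11* and *Alkbh8*. It was at 17.2 and 16.8 FPKM in control against 34.7 and 20.2 in *Eef1g*-cKO, log2 fold change 0.61, which did not pass (standard error 0.34, limma adjusted p = 0.271). *Thumpd3* lies outside the rule by which genes were named and was chosen after its values were seen.

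*Trmt5* and *Trmt12* act in turn on the guanosine beside the anticodon of phenylalanine tRNA, on the way to wybutosine. *Trmt5* was at 24.9 and 31.6 FPKM in control against 13.4 and 8.81 in *Eef1g*-cKO, from 103, 73, 5 and 6 reads (log2 fold change -1.29, standard error 0.33, limma adjusted p = 0.0664; edgeR adjusted p = 0.0574). *Trmt12* was at 1.37 and 2.97 FPKM in control and had 0 reads in both *Eef1g*-cKO libraries, at least 1.69-fold lower by the same floor (limma adjusted p = 0.117). Neither was called by an adjusted p. *Trmt5* lost its call in edgeR, in DESeq2, thinned to equal depth and without either control library. *Trmt12* lost its call with a pseudocount of 5, in DESeq2, with the GC trend removed and without *Eef1g*-cKO replicate 2.

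*Thumpd1* and *Trmt6*, also among the 10 most abundant members, differed little between genotypes and were not called. *Thumpd1*, which encodes a partner of the tRNA cytidine acetyltransferase, was at 57.0 and 56.4 FPKM in control against 58.2 and 60.2 in *Eef1g*-cKO (log2 fold change 0.06, standard error 0.20, limma adjusted p = 0.863). *Trmt6*, a subunit of the adenosine methyltransferase of the T loop, was at 30.9 and 32.8 FPKM against 30.1 and 25.2 (log2 fold change -0.20, standard error 0.25, limma adjusted p = 0.609). The 11 others tested were *Trmt1*, *Trmt1l*, *Trmt2a*, *Trmt10a*, *Trmt10b*, *Trmt10c*, *Trmt13*, *Trmt44*, *Trmt61a*, *Trmt61b* and *Thumpd3*. They had control means of 2.36 to 32.7 FPKM and log2 fold changes from -1.14 to 0.61, with no unadjusted limma p under 0.05.

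The NSUN genes, which encode cytosine methyltransferases of tRNA and ribosomal RNA, were the role nearest to 0, with a median log2 fold change of -0.01 over 6 genes and no call. *Nsun5*, whose product acts on ribosomal RNA, was at 24.8 and 43.2 FPKM in control against 31.9 and 19.7 in *Eef1g*-cKO, with overlap (log2 fold change -0.37, standard error 0.38, limma adjusted p = 0.536). *Nsun2*, *Nsun3*, *Nsun4*, *Nsun6* and *Nsun7* had log2 fold changes from -0.35 to 1.19, with no unadjusted limma p under 0.05. The highest of these, *Nsun7*, came from 19, 3, 12 and 1 reads. In DESeq2 it had a log2 fold change of 2.41 (unadjusted p = 0.031, adjusted p = 0.150).

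Among the 5 pseudouridine synthase genes, *Pus1*, whose product modifies nuclear and mitochondrial tRNAs, decreased. It was at 12.6 and 29.5 FPKM in control against 2.37 and 5.20 in *Eef1g*-cKO, from 59, 77, 1 and 4 reads. All *Eef1g*-cKO values were below the lower control. The log2 fold change of -2.16 passed by the unadjusted p (standard error 0.55, limma adjusted p = 0.0657) and in edgeR (-2.21, adjusted p = 0.0238), but not in DESeq2 or without control replicate 2. *Pus3*, *Pus7*, *Pus7l* and *Pus10* had log2 fold changes from -1.13 to 0.06 and no call, and *Pus10* was the one above 0.

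The 5 other anticodon loop genes all had log2 fold changes below 0, and none was called. They comprise *Adat1*, *Adat2* and *Adat3* (adenosine deaminases that make inosine), *Qtrt1* (queuosine) and *Trit1* (an isopentenyl group). Their log2 fold changes ran from -1.70 to -0.49 with control means of 4.25 to 12.0 FPKM, and together they had 8 and 18 reads in the *Eef1g*-cKO libraries, so each gene rested on few fragments.

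Of the splicing endonuclease genes, *Tsen15* had a log2 fold change above 0 and *Tsen34* and *Tsen54* below it. *Tsen15*, which encodes a structural subunit, was the single member that increased by the unadjusted p. It was at 5.70 and 4.47 FPKM in control against 11.8 and 15.2 in *Eef1g*-cKO, but from only 3 and 7 reads in *Eef1g*-cKO (log2 fold change 1.25, standard error 0.37, limma adjusted p = 0.0907; edgeR adjusted p = 0.164). Its call was lost with a pseudocount of 5, in edgeR, in DESeq2, thinned to equal depth and without either control library. *Tsen34*, a catalytic subunit, and *Tsen54* had log2 fold changes of -0.93 and -1.01 and were not called (limma adjusted p = 0.0759 and 0.268). Their values came from 7 and 12 reads and from 1 and 6 reads in *Eef1g*-cKO. Both genes lay below both controls there, as did 37.7% of all genes tested.

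*Trnt1*, which encodes the enzyme that adds CCA to every tRNA, was at 16.9 and 14.7 FPKM in control against 25.2 and 25.6 in *Eef1g*-cKO. It is given as the single gene of its role, outside the rule for named genes. The genotypes did not overlap, and the log2 fold change of 0.66 did not pass (standard error 0.27, limma adjusted p = 0.165). Exons of *Trnt1* overlap those of *Crbn* on the opposite strand over 18.4% of their bases. *Crbn* was at 22.9 and 18.7 FPKM in control against 22.0 and 46.6 in *Eef1g*-cKO.

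**Figure D3:**
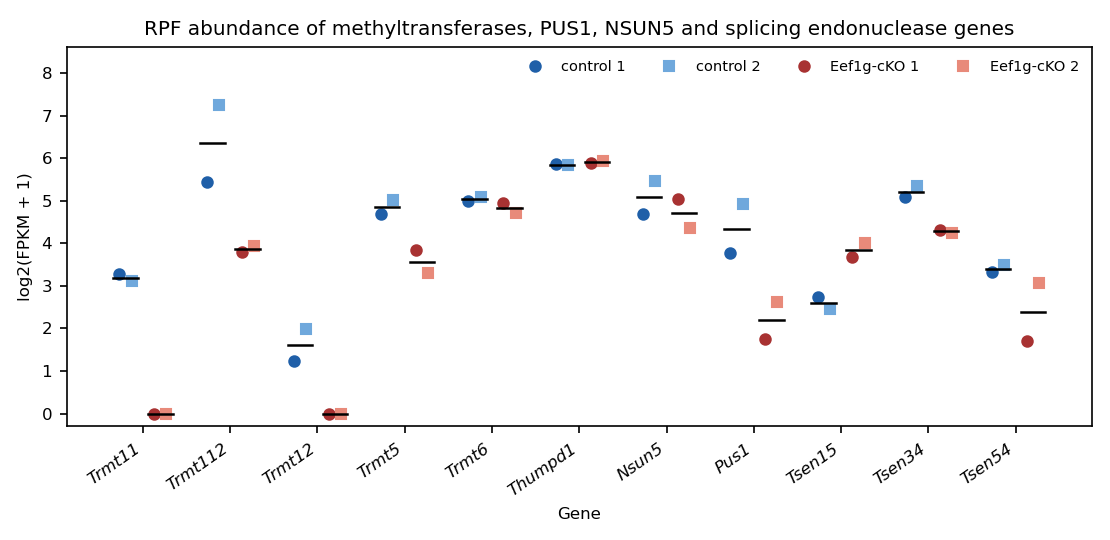
RPF abundance, as log2(FPKM + 1), of called and abundant members outside the wobble uridine group and of 3 splicing endonuclease genes in each library, with circles for replicate 1, squares for replicate 2 and black lines for genotype means. *Trmt11* and *Trmt12* are at 0 in both *Eef1g*-cKO libraries, *Thumpd1* is level, and *Tsen15* is the one gene with a clearly higher *Eef1g*-cKO mean.

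Beside the members, 58 other genes of tRNA maturation and modification were in the table and 55 were tested. Their median log2 fold change was -0.14, with 32 below 0 and 23 above (6191 and 4284 of the 10475 genes tested). By the unadjusted limma p, 7 decreased (12.7%, against 16.3% of all genes) and 2 increased (3.64%, against 7.32%). By edgeR's adjusted p, 3 decreased (6.52%, against 11.2%) and 2 increased (4.35%, against 8.75%). The list holds 10 genes of subunits of RNase P, which trims the 5′ end of tRNA precursors, a grouping chosen after their values were seen. Of these, 3 decreased by the unadjusted p and 7 were not called, among them *Rpp14* and *Rpp30* with log2 fold changes of 0.00 and -0.01. *Rpp25l* fell from 52.9 and 57.7 FPKM to 5.32 and 14.6 (log2 fold change -2.50, standard error 0.46, limma adjusted p = 0.0384), a call lost in DESeq2 and without either control library. *Rpp40* was at 10.8 and 7.39 FPKM in control against 0 and 0.896 in *Eef1g*-cKO, where it had 1 read (pooled ratio 0.0605, exact 95% interval 0.00152 to 0.345, limma adjusted p = 0.0417). *Pop1* fell from 30.0 and 29.4 to 10.5 and 15.2 FPKM (log2 fold change -1.17, limma adjusted p = 0.0665; edgeR adjusted p = 0.0255), and its call was lost in 7 of 15 alternatives.

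The other decreases by the unadjusted p alone rested on few reads. *Kti12*, an Elongator-associated factor, was at 10.4 and 11.6 FPKM in control against 2.87 and 6.30 in *Eef1g*-cKO (log2 fold change -1.17, standard error 0.46). *Dus2*, a dihydrouridine synthase, was at 8.87 and 15.5 FPKM against 4.68 and 3.85, and *Pusl1* at 9.87 and 10.0 against 0 and 4.00. Of 15 alternatives, the call was lost in 11 for *Kti12*, 7 for *Dus2* and 6 for *Pusl1*. *Trpt1* had 6 and 6 reads in control, 2.12 and 3.79 FPKM, and 0 in *Eef1g*-cKO, where the floor of 3 reads lies above the control level.

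Increases in this list were the nuclease of mitochondrial RNase P, *1110008L16Rik* (now *Prorp*), and *Tyw5*, a wybutosine hydroxylase. *1110008L16Rik* was at 5.31 and 4.64 FPKM in control against 14.3 and 20.4 in *Eef1g*-cKO (log2 fold change 1.60, standard error 0.37, limma adjusted p = 0.0552; edgeR adjusted p = 0.00600), and its call was lost without either control library. *Tyw5* was at 6.05 and 7.39 FPKM against 18.3 and 15.0 (log2 fold change 1.19, limma adjusted p = 0.0817), a call lost in 6 of 15 alternatives. *Yrdc*, which acts in threonylcarbamoyl adenosine synthesis, was at 21.0 and 40.0 FPKM against 51.7 and 66.2 and was called by edgeR (1.08, adjusted p = 0.0375) but not by limma.

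Summed over each list, the members lay apart by genotype, while the other tRNA pathway genes as a whole and the aminoacyl-tRNA synthetase genes overlapped. All 50 members held 2643 and 3285 of every 1000000 counted reads in control against 2108 and 1919 in *Eef1g*-cKO, a ratio of the means of 1.47. Without the 11 wobble uridine enzymes the sums were 1434 and 1724 against 1255 and 1221. The 58 other tRNA pathway genes took 2995 and 3495 in control against 3327 and 3336, and 20 cytosolic aminoacyl-tRNA synthetase genes 5508 and 6692 against 5869 and 6010. Within the 58, the 10 RNase P genes also lay apart, at 507 and 597 in control against 335 and 341 in *Eef1g*-cKO. That grouping was chosen after their values were seen. Over the same libraries the summed FPKM of spermatogonia markers was 6.03 times higher in control and that of leptotene and zygotene markers 2.28 times higher in *Eef1g*-cKO. Whether the lists differ from each other in their change was not tested.

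**Figure D4:**
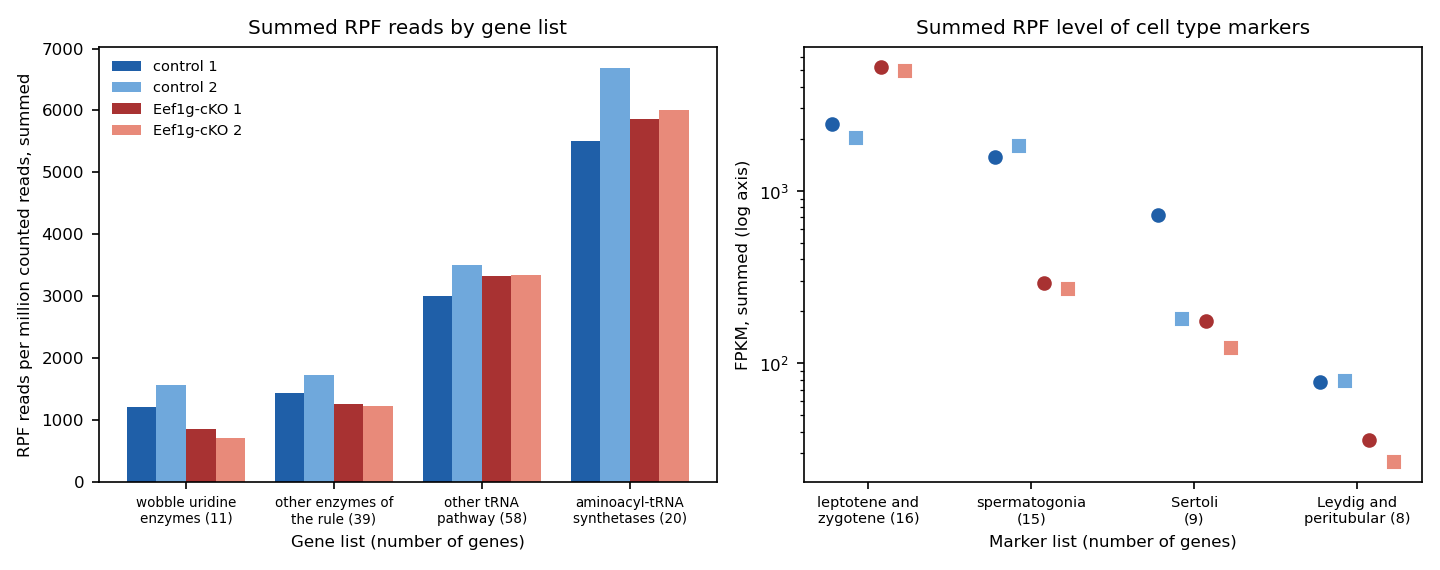
Left, RPF reads per 1000000 counted reads summed over 4 gene lists in each library, where the wobble uridine enzymes (1210 and 1561 in control, 853 and 699 in *Eef1g*-cKO) and the other enzymes of the rule lie apart by genotype and the remaining lists overlap. Right, FPKM summed over marker lists on a log axis in the same libraries and colours, with spermatogonia markers lower and leptotene and zygotene markers higher in *Eef1g*-cKO.

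The members' own coding sequences were compared with those of all genes tested, using the longest curated RefSeq coding sequence (48 members and 10119 genes). The median share of G or C at the third codon position was 53.9% in the members and 60.2% over all genes. Codons AAA, GAA and CAA, which the lysine, glutamate and glutamine tRNAs printed above read, made up a median of 7.21% of member codons and 5.98% over all genes. Across genes, the log2 fold change and this GC share had a Spearman's rho of -0.31 over the members and -0.30 over all genes. For the share of the 3 codons rho was 0.26 and 0.23. Genes are not independent replicates, and all points share the same 4 libraries. By call, the median share of these 3 codons was 6.91% in the 735 increased genes with a coding sequence, 4.67% in the 1640 decreased and 6.23% in the 7744 without a call, while the GC share was 55.1%, 65.9% and 58.9%. All 3 codons end in A, so by construction a higher share of them goes with a lower GC share.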

How the data were processed

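RPFs of 4 libraries, 2 control and 2 *Eef1g*-cKO, were analysed. The authors deposited FPKM per gene, computed on gene length and reads counted on genes, and normalized counts, a signal from which whole reads were recovered (100% of values to within 0.001 of a read). The submitters' processing notes name cutadapt, Bowtie, STAR and the builds mm10 and hg38 without their roles. The counter, its strand setting and the annotation are not given in the sources used here. The deposited table also holds the authors' own fold changes and p-values, which were not used. Its lowest total is 10 reads per gene.

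FPKM are not counts, so limma 3.58.1 (R 4.3.3, lmFit and eBayes with a trended prior) was run on log2(FPKM + 1) for the 10475 genes that averaged 1 FPKM or more, by genotype. Fold changes on this scale understate low genes. Calls used p below the 0.05 threshold with a log2 fold change beyond 1 in size, both unadjusted and Benjamini-Hochberg adjusted over all genes, since the study gives these thresholds without saying whether its p was adjusted. edgeR 4.0.16 and DESeq2 1.42.0 on the recovered reads were alternatives. Models were tested on simulated data. Intervals and floors (3 reads, 95% confidence) cover counting error only.

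Values in every library are given for *Eef1g*, for members and other tRNA pathway genes called by unadjusted limma p or adjusted edgeR p, for all wobble uridine enzymes and for the 10 members with the highest mean FPKM. The members and lists were chosen with earlier results of these data known. Members were matched to RefSeq by symbol or an older symbol. Values of 2 members are not reported individually here, though counts, medians and sums over the members include them. *Thumpd2* and *Trmt9b* had no row and were not analysed here. Exons of 20 of the 50 members overlap another annotated gene. Among these are *Nsun5* (20.0% of exon bases), *Pus1* (14.9%) and *Elp5* (14.6%).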

Additional observations from a re-analysis of the deposited data

How the results depend on the processing

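Alternatives changed 1 choice at a time, except that edgeR and DESeq2 changed the input, model and filter together and, for single genes, used the adjusted p. Left-out libraries were fitted with the spread pooled, so a lone library was assumed to vary like the other genotype. Depth limits all results, since 10 members had 3 reads or fewer in each *Eef1g*-cKO library.

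Members decreased by unadjusted p numbered 9 and ranged from 5 to 17 when 1 library was left out. Members increased by unadjusted p numbered 1, and 0 with a pseudocount of 5 or in edgeR, with a range of 0 to 3 when 1 library was left out. Members decreased by adjusted p numbered 3, and 0 with a pseudocount of 0.1, without the prior trend or thinned to equal depth, 1 without the filter or centred, 7 in edgeR and 0 to 11 with 1 library left out. Members increased by adjusted p numbered 0, and 0 to 1 with 1 library left out. Other tRNA pathway genes decreased by unadjusted p numbered 7, but 3 with a pseudocount of 5, in edgeR, in DESeq2 or with the GC trend removed, 4 at a mean of at least 5 FPKM and 2 to 11 with 1 library left out. Those increased numbered 2, but 1 with a pseudocount of 5 or thinned, 6 centred, 5 in edgeR or with the GC trend removed and 0 to 6 with 1 library left out.

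The member median of -0.90 was -0.48 with a pseudocount of 5 (all genes -0.13) and -0.68 centred (all genes -0.02). It was -0.72 in edgeR (all genes -0.05), -0.80 in DESeq2 (all genes -0.27) and -0.61 thinned (all genes -0.18). With the GC trend removed it was -0.43 (all genes 0.05). It ran from -0.88 to -0.54 with 1 library left out (all genes from -0.25 to -0.17). *Eef1g* lost its call with a pseudocount of 0.1 (log2 fold change -5.10) in DESeq2 (-2.77) and without either control library, and ranged from -4.82 to -1.96 with 1 library left out. Removal of the GC trend was chosen after seeing the data.

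Over 31 named genes and 454 combinations of gene and setting, 364 kept direction and call, 72 lost a call, 14 gained one and 4 changed sign. *Nsun5* was at -0.76 and 0.014 without control replicates 1 and 2 and 0.23 with the GC trend removed, *Thumpd1* at -0.12 thinned and *Trmt6* at 0.012 centred, and none of these had a call. The cause was not tested.

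Same-numbered libraries did not deviate together (correlation -0.01 over 10475 genes). With so few libraries, and few reads per gene in *Eef1g*-cKO, this value cannot show whether the numbers pair the libraries. With the replicate number as a block, 13 members decreased by unadjusted p and 7 by adjusted p, 1 increased by unadjusted p and 0 by adjusted p, and the member median was -0.90.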
